A study of Mus musculus with 48 samples.

Results

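The genes of the insulin-like growth factor (IGF) axis described here were both ligands (Igf1 and Igf2), both receptors (Igf1r and Igf2r) and the binding proteins Igfbp2 to Igfbp7. They were followed in NIH3T3 cells, an established mouse fibroblast line, grown to confluence and synchronized with forskolin, an activator of adenylyl cyclase that aligns the circadian clocks of cultured cells. Cells were harvested at every hour from hour 20 to hour 67, and the RNA of each hour went to 1 Affymetrix Mouse Genome 430 2.0 array, so the series holds 1 group of 48 arrays, all from forskolin-treated cells, with no untreated arrays and no replicate of any hour. The members were all probe sets whose platform symbol named any of the 10 genes, which gave 28 of the 45037 probe sets and 10 of the 18193 genes. The probe set with the highest mean represented each gene, and the others are given by their range. Values are log2 intensities, read within a probe set and never between probe sets.

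IGF-I and IGF-II are secreted peptides that act mainly through the IGF-1 receptor, a tyrosine kinase that feeds the PI3K-AKT and MAP kinase routes. The IGF-2 receptor, which is also the cation-independent mannose 6-phosphate receptor, takes IGF-II up for breakdown in lysosomes and carries lysosomal enzymes. The binding proteins hold the ligands outside the cell, where proteases release them, and fibroblasts are known to secrete several of them.

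All 10 fibroblast markers lay above the median probe set mean of 6.67, whereas none of the hepatocyte, epithelial, endothelial and skeletal muscle markers did. Of the adipocyte markers 1 of 5 measured lay above it (Fabp4, which rose by 0.58 ± 0.03 per 24 h, with Adipoq at 5.39), and of the macrophage markers 1 of 6 (Cd68, with Adgre1 at 5.44). Of the other macrophage markers, Lyz2 and Csf1r passed the trend test at low values and in opposite directions, with slopes of 0.45 ± 0.08 per 24 h (mean 6.52) and -0.48 ± 0.18 (mean 5.72). The mean of the adipocyte list ran from 7.36 to 7.56 on day 1 (hours 20 to 43) and from 7.52 to 7.66 on day 2 (hours 44 to 67), and that of the macrophage list from 6.31 to 7.11 and from 6.32 to 6.66. The part of other cell types in the results below was not tested. In 10 arrays, 7 on day 1 and 3 on day 2, the β-actin 3′ probe set exceeded its 5′ probe set by more than 1.4 (log2), against a median of 1.13 on both days and a highest value of 2.42. This difference is a standard sign of shortened RNA or cDNA. The correlations of the members with it are given below. The BioB hybridization control stood 0.90 above the other arrays at hours 52 to 55. In bulk RNA, fewer cells of a type and less RNA per cell cannot be told apart, and with 1 array per hour the p-values measure the spread of these arrays around a fitted course.

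Over the 48 h, the genes of the axis moved in different directions. By the linear term of a limma fit, with Benjamini-Hochberg adjustment over all probe sets, 6 of the 10 genes rose (Igf1, Igf2, Igf1r, Igf2r, Igfbp5 and Igfbp6), 2 fell (Igfbp4 and Igfbp7) and 2 did not pass (Igfbp2 and Igfbp3). Over the brightest probe sets of all genes, 15.9% rose and 19.3% fell. Among the 28 probe sets of the members, 13 rose, 9 fell and 6 did not pass, against 14.2% and 16.2% of all 45037 probe sets. Of the 28, 23 lay above the median probe set, and of these 13 rose and 9 fell. Tested alone, the 22518 probe sets above the median gave 6421 rises and 6405 falls, larger shares than over all probe sets. The median slope of the 10 genes was 0.15 per 24 h, and that of all genes was -0.004.

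**Figure D1:**
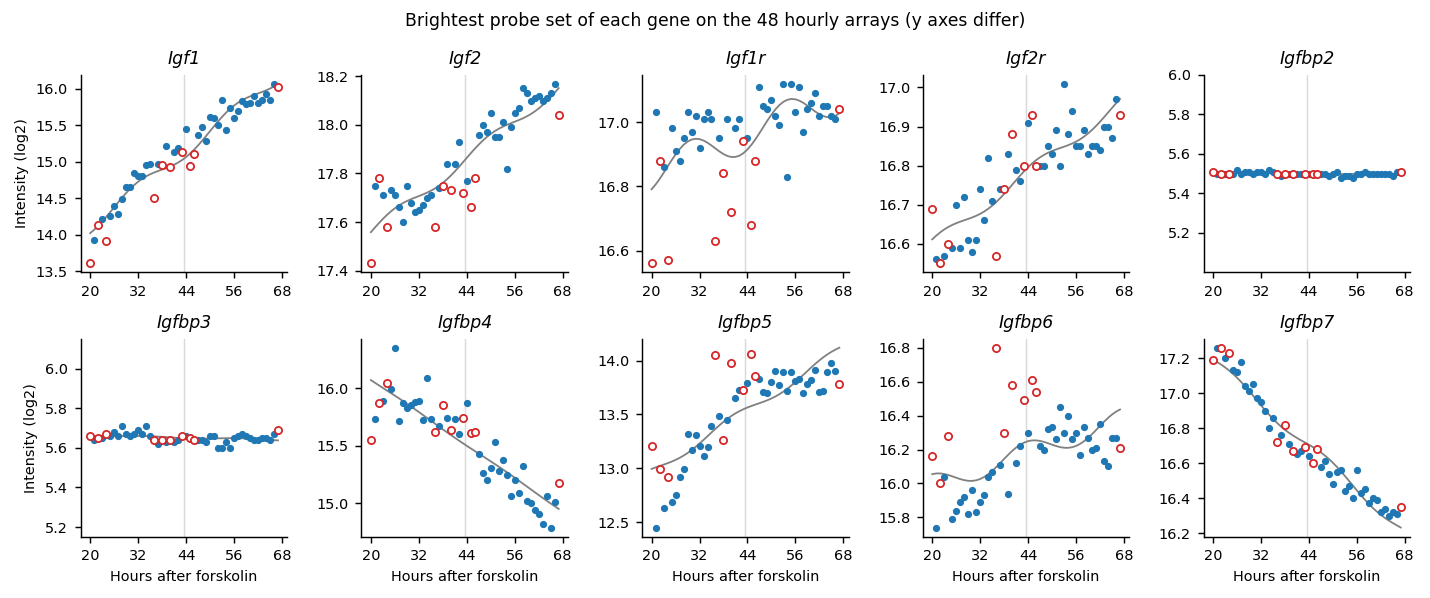
Log2 intensity of the brightest probe set of each gene (y axis, a separate range per panel) against hours after forskolin (x axis), 1 point per array. Grey curves are the fitted trend with a 24 h cosine, hollow red points are the 10 arrays with a β-actin difference above 1.4, and the grey vertical line parts day 1 from day 2. Igf1 rose and Igfbp7 fell throughout, whereas Igfbp2 and Igfbp3 stayed within 5.48 and 5.71.

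Of the ligands, Igf1 changed most. Its brightest probe set ranged from 13.61 to 15.22 on day 1 (median 14.73) and from 14.94 to 16.07 on day 2 (median 15.72), with its lowest value at hour 20 and its highest at hour 66. The ranges of the days overlapped only at their edges, since 22 of the 24 day 2 arrays lay above every day 1 array, and each of the 24 arrays of day 2 exceeded the array 24 h before it. The slope was 1.04 ± 0.05 (SE, n = 48 arrays) on the log2 scale per 24 h, a 2.06-fold rise per day (limma, adjusted p = 1.32e-23). The mean of hours 62 to 67 was 3.75-fold that of hours 20 to 25. Hours 20 to 25 are the base of every 6 h fold given here, and their arrays of hours 20, 22 and 24 had β-actin differences above 1.4. On these Igf1 stood at 13.61, 14.14 and 13.92, and at hours 21, 23 and 25 at 13.93, 14.22 and 14.26. In the last block hour 67 was above 1.4. The folds were not computed without such arrays. The other 3 probe sets of Igf1 also rose, so that the 4 slopes ran from 1.04 to 1.37. In order of falling mean, the deviations of these 3 from the fit correlated with the β-actin difference at r = -0.70, -0.86 and -0.67. Their slopes without the 10 arrays above 1.4 were 1.05 ± 0.06, 0.98 ± 0.06 and 1.22 ± 0.06. Deviations of the brightest from the fit correlated with the β-actin difference at r = -0.57, and without the 10 arrays above 1.4 its slope was 0.97 ± 0.04. The steepest climb came early, by 0.54 from hours 20 to 25 to hours 26 to 31, and the last step, from hours 56 to 61 to hours 62 to 67, was from 15.77 to 15.92. The squared term of the course passed the test accordingly, at -0.28 ± 0.07 (limma, adjusted p = 0.00963).

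Igf2, which encodes the fetal growth factor and is expressed from the paternal allele in most tissues, rose less steeply. Its values ran from 17.43 to 17.93 on day 1 (median 17.71) and from 17.66 to 18.17 on day 2 (median 18.04). The days overlapped, but 20 day 2 arrays lay above all of day 1, and 23 of 24 pairs of arrays 24 h apart were higher on day 2. The slope was 0.31 ± 0.02 per 24 h (limma, adjusted p = 1.01e-14). In 6 h means, Igf2 stood at 17.66, 17.67 and 17.68 until hour 37 and then climbed to 18.11 at hours 62 to 67, 1.36-fold the first mean, although the squared term did not pass the test (0.08 ± 0.04, limma, adjusted p = 0.106). Its deviations correlated with the β-actin difference at r = -0.71, and without the 10 arrays above 1.4 its slope was 0.30 ± 0.02. The second Igf2 probe set rose by 0.50 ± 0.10 per 24 h. The slope of Igf1 exceeded that of Igf2 by 0.74 per 24 h (95% interval 0.64 to 0.83, from the differences of the 48 arrays).

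Both receptors rose. Igf2r ranged from 16.55 to 16.88 on day 1 (median 16.70) and from 16.80 to 17.01 on day 2 (median 16.86). Every day 2 array was above its partner 24 h earlier, and 11 day 2 arrays lay above all of day 1. The slope was 0.18 ± 0.02 per 24 h (limma, adjusted p = 1.89e-11), and hours 62 to 67 stood at 1.24-fold the level of hours 20 to 25. Its second probe set rose by 0.36 ± 0.07 per 24 h.

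Igf1r ranged from 16.56 to 17.03 on day 1 (median 16.95) and from 16.68 to 17.12 on day 2 (median 17.04). The days overlapped widely, with 20 of 24 pairs higher on day 2. Its slope was 0.12 ± 0.03 per 24 h (limma, adjusted p = 0.00145). The brightest Igf1r probe set moved with the β-actin difference: its deviations from the fit correlated with it at r = -0.84 over the 48 arrays. Its lowest value, at hour 20, came from an array of high difference, 1 of the 10 above 1.4. Without those 10 arrays the slope was 0.06 ± 0.02 (limma, adjusted p = 0.0286), and with that difference in the model as a covariate it was 0.08 ± 0.02 (limma, adjusted p = 0.00053). The probe sets of Igf1r disagreed. A second rose by 0.16 ± 0.02 per 24 h, another, also above the median probe set, had a median of 10.90 on both days and a slope of -0.03 ± 0.05, and the remaining 2, with means of 5.83 and 5.76, did not pass the test. In order of falling mean, the deviations of the other Igf1r probe sets correlated with the β-actin difference at r = -0.59, 0.15, -0.46 and 0.20. The slopes of the brightest probe sets of Igf2r and Igf1r differed by 0.06 per 24 h, with a 95% interval of -0.01 to 0.14.

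The upstream sequences of the receptors are shown because the circadian activators bind E-boxes, and the Igf2r window holds that motif. RefSeq windows of the GRCm38.p6 assembly were found for all 10 genes, 14 windows in all, and the 250 bases before each annotated start were searched on both strands for the E-box (CACGTG), the cyclic AMP response element (TGACGTCA), the core of the ROR element (AGGTCA, which also occurs in other nuclear receptor sites) and the GC box (GGGCGG). Of all 32851 mouse windows of this length, 6.02% held the E-box, 1.55% the response element, 14% the ROR core and 32.7% the GC box. Among the 14 windows of the members, 2 held the E-box (Igf2r and Igfbp2), 0 the response element, 4 the ROR core (Igf1, Igf1r, Igf2r and 1 of the 4 windows of Igf2) and 6 the GC box. The Igf1r window lay at chr7:67952007-67952256 on the plus strand and the Igf2r window at chr17:12769707-12769956 on the minus strand, each adjoining the annotated start of its gene. Capitals mark matches to the E-box, the ROR core and the GC box.
Igf1r: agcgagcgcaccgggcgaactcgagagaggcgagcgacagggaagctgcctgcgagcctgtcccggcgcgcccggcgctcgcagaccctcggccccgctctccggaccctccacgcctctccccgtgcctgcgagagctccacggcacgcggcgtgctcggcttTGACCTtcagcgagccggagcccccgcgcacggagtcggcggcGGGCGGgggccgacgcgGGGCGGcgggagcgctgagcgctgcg
Igf2r: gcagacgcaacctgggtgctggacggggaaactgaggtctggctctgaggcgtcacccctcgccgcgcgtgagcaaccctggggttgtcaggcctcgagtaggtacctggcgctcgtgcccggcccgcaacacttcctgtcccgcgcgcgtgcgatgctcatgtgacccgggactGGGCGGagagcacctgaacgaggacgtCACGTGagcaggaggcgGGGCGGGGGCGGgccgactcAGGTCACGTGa
The Igf2r window held E-boxes starting 48 and 7 bases before the start, and the nearer of them overlapped the ROR core at 11 bases. The Igf1r window held no E-box and was 77.6% G and C, the highest share of the 14. A match is a description of the letters and not a shown binding site.

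The binding proteins split by direction. Igfbp4 and Igfbp7 fell, Igfbp5 and Igfbp6 rose, and Igfbp2 and Igfbp3 stayed near the floor of the arrays. Igfbp7, a secreted IGFBP-related protein that binds IGFs weakly, had the smallest trend p of the members. Its values ran from 16.65 to 17.26 on day 1 (median 16.96) and from 16.30 to 16.68 on day 2 (median 16.44). Of the day 2 arrays, 23 of 24 lay below all of day 1, and each of the 24 was below its partner 24 h earlier. The slope was -0.49 ± 0.02 per 24 h (limma, adjusted p = 7.41e-26), and hours 62 to 67 stood 1.85-fold below hours 20 to 25. The fall slowed with time, with a squared term of 0.17 ± 0.02 (limma, adjusted p = 3.52e-07). All 3 probe sets fell, by slopes of -0.35 to -1.06. The deviations of the brightest correlated with the β-actin difference at r = -0.19, and those of the probe set with the slope of -0.35 at r = -0.75.

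Igfbp4, whose product binds both IGFs and is cleaved by the protease PAPP-A, ranged from 15.55 to 16.35 on day 1 (median 15.78) and from 14.79 to 15.87 on day 2 (median 15.20). The days overlapped, but 21 day 2 arrays lay below all of day 1 and 23 of 24 pairs were lower. The slope was -0.57 ± 0.05 per 24 h (limma, adjusted p = 2.41e-13). Igfbp4 fell late: its 6 h mean was 15.85 at hours 20 to 25, still 15.71 at hours 38 to 43 and 14.96 at hours 62 to 67, 1.85-fold below the first. The squared term was -0.27 ± 0.08 (limma, adjusted p = 0.0382). All 6 probe sets fell, with slopes from -0.59 to -0.24. The brightest probe sets of Igfbp4 and Igfbp7 thus ended 1.85-fold below their first 6 h, with squared terms of opposite sign, while the other probe sets ended 1.34-fold to 1.86-fold below for Igfbp4 and 1.74-fold and 3.86-fold below for Igfbp7. The slopes of the brightest differed by -0.08 per 24 h (95% interval -0.20 to 0.03).

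Igfbp5, which encodes a binding protein of bone and connective tissue matrix, rose and then levelled off. It ranged from 12.45 to 14.05 on day 1 (median 13.21) and from 13.70 to 14.06 on day 2 (median 13.81). Day 1 was wide and day 2 narrow, and 22 of 24 pairs were higher on day 2. The highest values of the days, at hours 36 and 45, came from arrays of high β-actin difference. Only 1 day 2 array lay above all of day 1. Without the 10 arrays above 1.4, day 1 ran from 12.45 to 13.73, and 15 of the 21 day 2 arrays lay above it. The slope over all 48 arrays was 0.57 ± 0.07 per 24 h (limma, adjusted p = 1.62e-09). The 6 h means climbed from 12.81 to 13.83 at hours 44 to 49, 2.02-fold the first, and stayed between 13.81 and 13.83 to the end. The squared term was -0.56 ± 0.09 (limma, adjusted p = 2.64e-05). Over the 8 means of 6 h, the slope was 0.59 and did not pass the test (limma, adjusted p = 0.064). The second Igfbp5 probe set rose by 1.69 ± 0.36 per 24 h, from a lowest value of 5.15 at hour 20. The deviations of these probe sets of 1 gene correlated with the β-actin difference in opposite directions, at r = 0.58 for the brighter and r = -0.82 for the dimmer, whose slope was 1.09 ± 0.22 without the 10 arrays. The brighter had a slope of 0.67 ± 0.06 without them.

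Igfbp6, which encodes a binding protein that prefers IGF-II, ranged from 15.74 to 16.80 on day 1 (median 16.02) and from 16.10 to 16.61 on day 2 (median 16.27). No day 2 array lay above the highest of day 1, at hour 36, which was an array of high β-actin difference, and 20 of 24 pairs were higher on day 2. The slope was 0.19 ± 0.05 per 24 h (limma, adjusted p = 0.00448). Its 6 h mean was highest at hours 44 to 49, at 1.29-fold the first mean, and 1.17-fold at hours 62 to 67, with a squared term of -0.34 ± 0.09 (limma, adjusted p = 0.0108). That highest block held hours 45 and 46, both above 1.4, at 16.61 and 16.54. Its other arrays gave 16.20 to 16.32, beside a mean of 16.33 at hours 50 to 55. The deviations of Igfbp6 correlated with the β-actin difference at r = 0.77. Without the 10 arrays of high difference the slope was larger, at 0.31 ± 0.03 (limma, adjusted p = 2.46e-09). Without hours 20 to 25 it was 0.16 (limma, adjusted p = 0.0704), and over 6 h means 0.20 (limma, adjusted p = 0.289). The slope of Igfbp5 exceeded that of Igfbp6 by 0.38 per 24 h (95% interval 0.28 to 0.47).

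Igfbp2 and Igfbp3, the latter the main carrier of IGFs in blood, gave values close to the lowest of the arrays, 5.12. Igfbp2 lay between 5.48 and 5.52 on all 48 arrays, and the brighter of both Igfbp3 probe sets between 5.60 and 5.71. Their slopes did not pass the test (limma, adjusted p = 0.128 and 0.134). Without the 10 arrays above 1.4 the slope of Igfbp3 passed, at -0.02 ± 0.01 (limma, adjusted p = 0.048), a size within the narrow range of a probe set near the floor. Igfbp2 and Igfbp5 are neighbours on chromosome 1, 5590 bases apart in GRCm38.p6 and convergent, the former near the floor and the latter well above it.

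The windows upstream of Igfbp5 (chr1:72874866-72875115, minus strand) and Igfbp7 (chr5:77408046-77408295, minus strand) are shown because these binding proteins moved in opposite directions, with a correlation of r = -0.88 over the 48 arrays. Capitals again mark matches to the same motifs.
Igfbp5: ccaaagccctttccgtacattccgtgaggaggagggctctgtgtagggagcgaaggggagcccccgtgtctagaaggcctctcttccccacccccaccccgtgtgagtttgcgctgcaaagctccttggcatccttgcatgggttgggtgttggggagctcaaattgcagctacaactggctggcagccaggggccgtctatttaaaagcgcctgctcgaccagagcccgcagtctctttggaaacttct
Igfbp7: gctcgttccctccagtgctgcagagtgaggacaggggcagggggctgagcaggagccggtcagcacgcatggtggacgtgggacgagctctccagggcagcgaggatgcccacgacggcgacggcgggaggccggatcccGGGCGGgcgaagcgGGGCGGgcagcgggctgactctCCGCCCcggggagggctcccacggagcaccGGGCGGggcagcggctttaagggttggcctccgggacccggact
The Igfbp7 window, 74.0% G and C, held GC boxes starting 110, 96, 74 and 44 bases before the start. The Igfbp5 window, 58.8% G and C, held none of the 4 motifs, which says only that these letters are not in it.

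**Figure D2:**
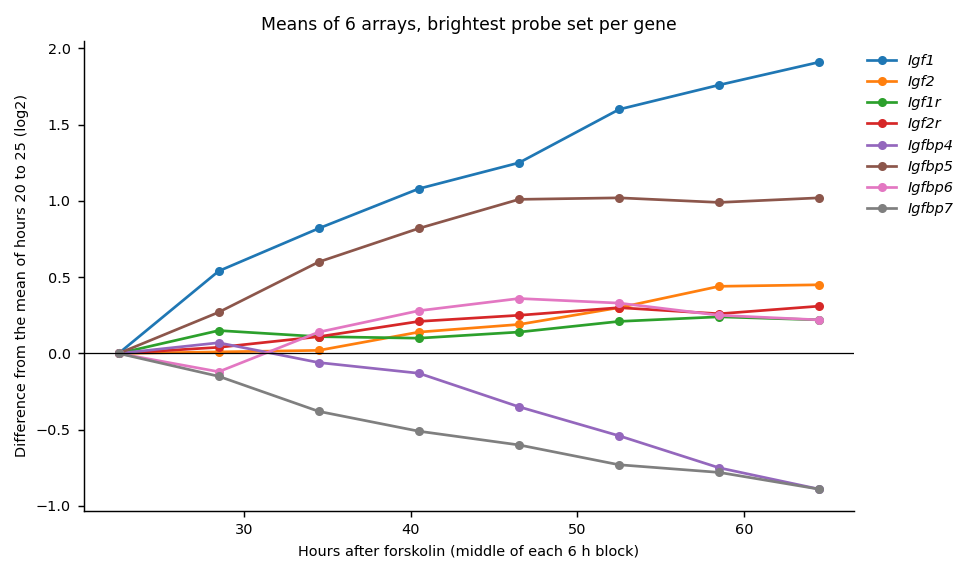
Difference of each 6 h mean from the mean of hours 20 to 25 (log2, y axis) against the middle of the 6 h block (hours after forskolin, x axis), 1 line per gene for the 8 genes above the median probe set, each point the mean of 6 arrays. Igf1 ended 1.91 above its start, Igfbp5 stayed near 1.02 from hour 44, and Igfbp4 and Igfbp7 met at -0.89. In the first block the arrays of hours 20, 22 and 24 had β-actin differences above 1.4.

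**Figure D3:**
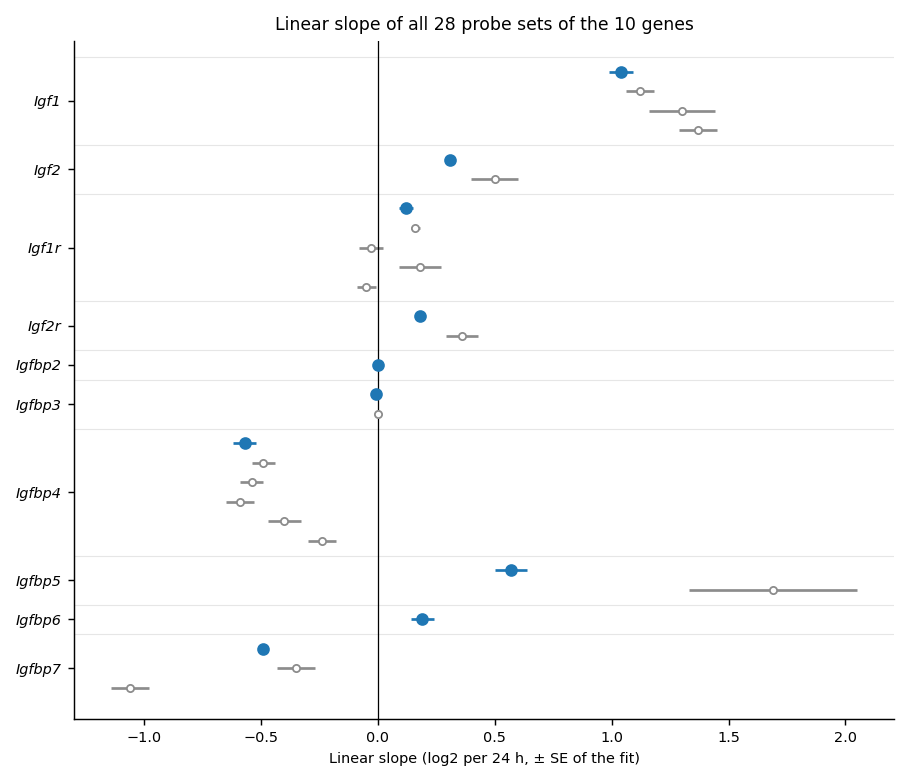
Linear slope (log2 per 24 h, x axis) with the standard error of the fit (bars) for all 28 probe sets, grouped by gene (y axis). Filled blue points are the brightest probe set of each gene and open grey points the others. All probe sets of Igf1, Igf2, Igf2r and Igfbp5 lay above 0 and all those of Igfbp4 and Igfbp7 below it, whereas those of Igf1r lay on both sides.

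The course was sampled to find circadian transcripts, so each member was tested for a 24 h cosine beside its trend. None of the 10 genes and none of the 28 probe sets passed (limma F-test, adjusted p), against 0.293% of all probe sets, which is 132. At an unadjusted p under 0.05, 1 of the 10 genes and 4 of the 28 probe sets passed, against 9.45% of all probe sets. In the 8 genes above the median probe set the fitted amplitude, from mean to peak, was at most 0.09 ± 0.03 (log2), in Igf1, equal to a 1.14-fold ratio of peak to trough (limma, adjusted p = 0.465). After removal of the correlation between neighbouring arrays, again 0 of the 28 passed. Fisher's G-test, which screens 23 Fourier periods, placed 0 members at 24 h, against 1.04% of all probe sets, and with the linear trend removed 0 of the 28 peaked at 24 h at an unadjusted p under 0.05. It passed 9 of the 10 genes at its longest period of 48 h. Of all probe sets, 52.2% passed at any period, and their share at 48 h was not counted. The 9 include Igfbp2 (Storey q = 0.0193) and Igfbp3 (Storey q = 0.0123), which lay near the floor and did not pass the trend test. The exception was Igf1r (Storey q = 0.455). With the linear trend removed, 2 of the 10 genes and 4 of the 28 probe sets passed, against 829 of all 45037 probe sets. These were the brightest of Igfbp5 (Storey q = 0.000975) and Igfbp7 (Storey q = 9.64e-05), again at 48 h. The others were dimmer probe sets of Igfbp4 (Storey q = 0.000349 and 0.00357), also at 48 h. The Igf2r gene, with its upstream E-boxes, had an amplitude of 0.02 ± 0.01 (limma, adjusted p = 0.956).

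The squared term of the course passed the test in 5 of the 10 genes and 12 of the 28 probe sets, against 7.59% of all probe sets. These were Igfbp7, whose fall slowed, Igf1, whose rise slowed, Igfbp5, whose rise stopped, Igfbp6, whose 6 h means declined after hours 44 to 49, and Igfbp4, whose fall steepened. Over the 8 means of 6 h, 0 of the 10 genes passed, against 1 of all 45037 probe sets. With a term for hours 52 to 55, 8 of the 10 genes passed, against 14731 of all 45037 probe sets. Without the 10 arrays above 1.4, 4 of the 10 genes passed, against 2249 of all 45037 probe sets. The highest 6 h mean of Igfbp6 included hours 45 and 46, both among those arrays.

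No member had day 1 and day 2 values without overlap over all arrays, against 0.102% of all probe sets. Without the 10 arrays above 1.4, 2 of the 28 did, against 0.639% of all probe sets. They were the brightest probe sets of Igf1 (13.93 to 15.22 on day 1 and 15.29 to 16.07 on day 2) and of Igfbp7 (16.65 to 17.26 and 16.30 to 16.64).

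The members differed in how they moved with the β-actin difference, whose part in the results was not tested. Besides Igf1r, the deviations of Igf2 (r = -0.71) and Igf1 (r = -0.57) went down with the β-actin difference, while those of Igfbp6 (r = 0.77) and Igfbp5 (r = 0.58) went up. The brightest probe sets of Igfbp7 (r = -0.19), Igfbp4 (r = -0.08) and Igf2r (r = 0.10) showed little relation. Other probe sets of these genes gave r = -0.75 and 0.27 for Igfbp7, -0.61 to 0.26 for Igfbp4 and -0.02 for Igf2r. These are descriptions over the same 48 arrays, which share that difference. After removal of trend and cosine, the 28 pairs of the 8 genes ran from r = -0.72 (Igf1r with Igfbp6) to r = 0.71 (Igfbp5 with Igfbp6), and Igf1r correlated with Igf1 at r = 0.66 and with Igf2 at r = 0.63. Pairs with a gene whose brightest probe set was little related to the β-actin difference varied. Some gave larger values, with r = -0.68 for Igfbp5 and Igfbp7, -0.52 for Igf2r and Igfbp7 and 0.52 for Igf1 and Igfbp4. Others lay near 0, with r = 0.02 for Igf1r and Igfbp4, 0.02 for Igf1r and Igfbp7 and -0.07 for Igf1r and Igf2r. Igf1 and Igf2 gave 0.27 and Igf1 and Igfbp5 0.09. The squared term was not removed, so the bend of the courses can enter all these correlations, and its part was not tested. When that difference was fitted as a covariate, the slopes of Igf1 (0.99 ± 0.04), Igf2 (0.27 ± 0.02), Igf2r (0.19 ± 0.02), Igfbp4 (-0.58 ± 0.05) and Igfbp7 (-0.49 ± 0.02) were close to those given above. Those of Igfbp5 (0.64 ± 0.06, against 0.57) and Igfbp6 (0.27 ± 0.04, against 0.19) were larger. That of Igf1r (0.08 ± 0.02, against 0.12) was smaller.

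**Figure D4:**
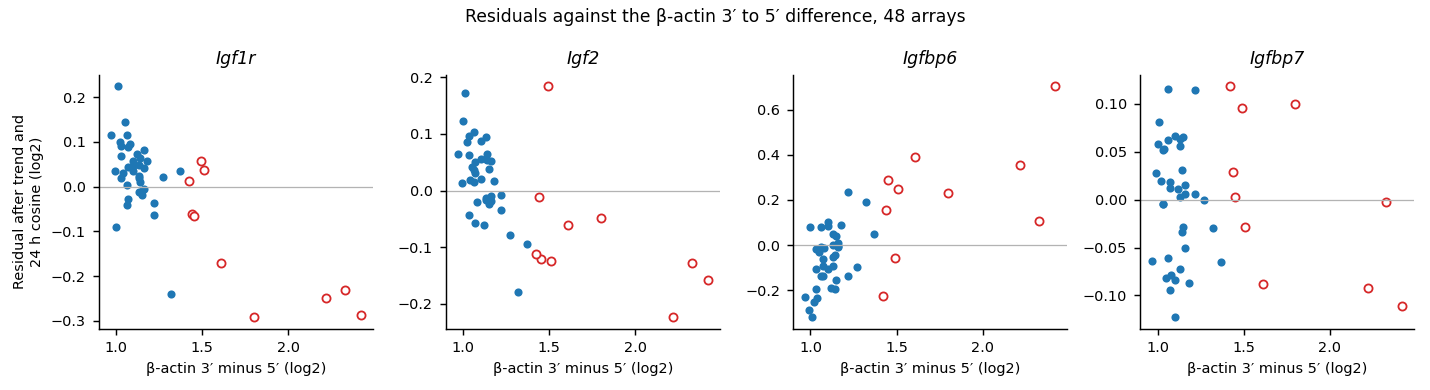
Deviation of each array from the fitted trend and 24 h cosine (log2, y axis) against the β-actin 3′ minus 5′ difference (log2, x axis) for Igf1r, Igf2, Igfbp6 and Igfbp7, 1 point per array, with hollow red points above 1.4. Igf1r and Igf2 fell and Igfbp6 rose with the difference, at r = -0.84, -0.71 and 0.77, and Igfbp7 showed r = -0.19.

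The genes around the axis were counted by the same trend test over the brightest probe sets, of which 15.9% rose and 19.3% fell. Calls were more frequent above the median probe set, as given above. There lay 11 of the 12 proteases and inhibitors, 12 of the 15 receptor relatives and all 21 PI3K-AKT-mTOR-FoxO genes measured. So did all 4 genes of the mannose 6-phosphate route, 7 of the 12 imprinted genes and 2 of the 6 other family genes. Of the 12 proteases of binding proteins and their inhibitors, 6 rose and 4 fell, with a median slope of 0.09 per 24 h. The secreted serine proteases Htra1 (1.02 ± 0.15) and Htra3 (1.01 ± 0.13) and the PAPP-A inhibitor Stc2 (0.66 ± 0.09) rose, while Stc1, which also inhibits PAPP-A, fell (-0.47 ± 0.12). Pappa itself, which cleaves IGFBP-4, had a slope of 0.01 ± 0.02 and did not pass. Day medians of Htra1 were 11.29 and 12.16, and those of Stc2 11.01 and 11.55.

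Of the 15 receptor relatives and adaptors, 3 rose and 4 fell, with a median slope at 0. The cytokine signalling inhibitor Socs3 (-0.72 ± 0.06) and the phosphatase gene Ptpn1 (-0.58 ± 0.06) fell, and the docking proteins Gab1 (0.46 ± 0.04) and Irs1 (0.33 ± 0.03) rose. Irs1 is a direct substrate of the IGF-1 and insulin receptors, and its day medians were 14.68 and 15.06. The insulin receptor gene Insr rose by 0.15 ± 0.04 per 24 h, beside 0.12 ± 0.03 for Igf1r.

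Of the PI3K-AKT-mTOR-FoxO genes, 21 of the 24 listed were measured, 9 rose and 2 fell, with a median slope of 0.03 per 24 h. The largest slopes were those of the regulatory subunits Pik3r2 (0.41 ± 0.08), Pik3r3 (0.34 ± 0.03) and Pik3r1 (0.25 ± 0.03) and of the transcription factor Foxo1 (0.21 ± 0.05). Of the 4 genes of the mannose 6-phosphate route, which tags the lysosomal cargo of Igf2r, Gnptg (0.61 ± 0.04) and Nagpa (0.30 ± 0.11) rose and Gnptab (-0.15 ± 0.04) and M6pr (-0.05 ± 0.02), the smaller mannose 6-phosphate receptor, fell. Ctsd, a lysosomal protease counted above among the IGFBP proteases, rose by 0.33 ± 0.02.

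Of the imprinted network around Igf2, 12 of 13 genes were measured, 3 rose and 1 fell. Plagl1 (0.40 ± 0.03), which encodes a zinc-finger factor, Mest (0.20 ± 0.07) and Peg3 (0.15 ± 0.02) rose and Dlk1 (-0.06 ± 0.01) fell, while H19, the neighbour of Igf2, was not analysed here. Of the 6 measured family genes outside the 10, only Igf2bp1, an RNA-binding protein gene named for the Igf2 transcript, passed the trend test, at -0.11 ± 0.03.

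**Figure D5:**
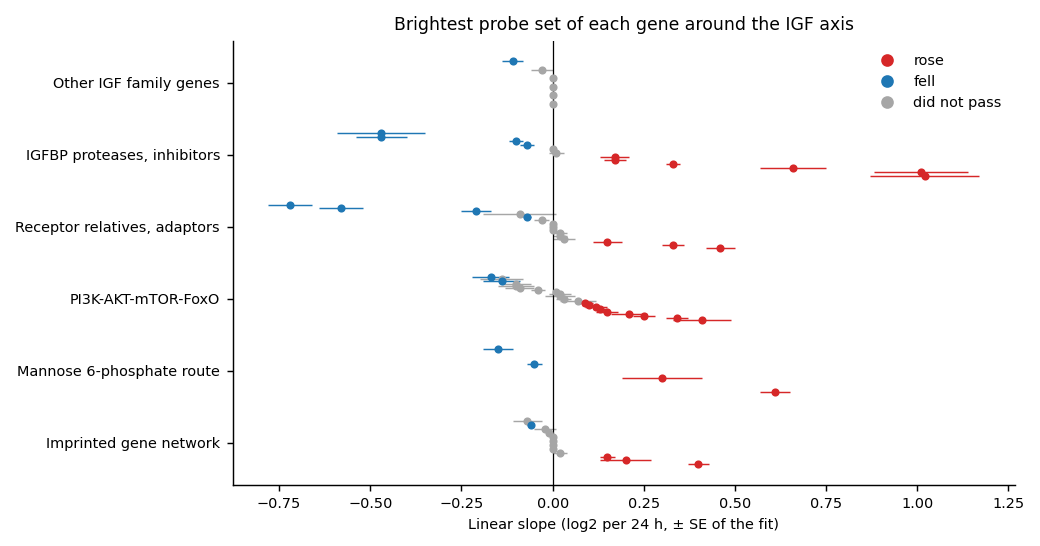
Linear slope (log2 per 24 h, x axis) with the standard error of the fit (bars) for each measured gene of the 6 lists around the IGF axis (rows, y axis), by its brightest probe set. Red points rose, blue points fell and grey points did not pass the limma test. The steepest rises were Htra1 and Htra3, near 1.02 and 1.01, and the steepest fall was Socs3, at -0.72.

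The courses most like those of the 3 members with the smallest trend p were sought among 10365 genes above the median probe set, by Pearson correlation over the 48 arrays and as a description. Nearest to Igf1 were Dpt (r = 0.982), which encodes the matrix protein dermatopontin, Ctla2a (r = 0.978), Nceh1 (r = 0.976) and Ctla2b (r = 0.975). Dpt rose by 1.78 ± 0.08 per 24 h. Nearest to Igfbp7 were Lxn (r = 0.974), Ahr (r = 0.974), the aryl hydrocarbon receptor, Tk1 (r = 0.972), the thymidine kinase of dividing cells, and Has2 (r = 0.971), a hyaluronan synthase, all of which fell, by slopes from -1.55 to -0.59. Nearest to Igf2 were Dhrs3 (r = 0.948), a retinaldehyde reductase with a slope of 2.43 ± 0.10, Mfap5 (r = 0.939), Fkbp7 (r = 0.938) and Aga (r = 0.938). All of these share arrays with the member and carry a steady trend.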

How the data were processed

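Total RNA of 48 hourly samples was amplified, biotin-labelled and hybridized to 48 arrays. The deposited values are probe set intensities on a linear scale, from 34.8 to 761156.7. The authors' methods name GCRMA (background correction and quantile normalization between arrays) for them, and the submitters' processing notes name MAS5. Their versions were not given in the sources used here. The scaling constant is unknown. Array medians lay between 6.58 and 6.71 (log2). Values were taken to log2 with no pseudocount and no filter. GCRMA can compress low values, and quantile normalization hides a change shared by all genes.

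Of 45037 probe sets, 34945 had 1 symbol, 932 several and 9160 none. Of those with 1 symbol, 34741 were matched by gene identifier to RefSeq and took its symbol, whether or not it differed. The 64 control probe sets were left out of tests, and 0 columns lacked a sample. The 1 probe set with a member among several symbols was tested but left out of the members. Genes took their brightest probe set. limma 3.58.1 (R 4.3.3) fitted a linear term with 24 h cosine and sine terms, and a squared term in a second model, with moderated tests and Benjamini-Hochberg adjustment at 0.05 over all non-control probe sets. Fisher's G-test was run with exact p-values over 23 periods and Storey q (spline of 3 degrees of freedom). COSOPT was not run. SE is that of the fit. The number of arrays limits the precision, and no depth applies. The fits were tested on simulated data. Python 3.11.15, numpy 2.4.6, pandas 2.3.3, scipy 1.17.1 and matplotlib 3.10.9 were used.

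The 10 members and all lists were chosen with earlier results of these data known. Named were all members, up to 4 genes per list with the largest slopes past the test, and the 4 nearest courses of 3 members. In addition Pappa, Insr, Ctsd and the markers Fabp4, Cd68, Adipoq, Adgre1, Lyz2 and Csf1r were named after their values were seen. Alternatives were quantile normalization, median centring, probe sets above the median only, a pseudocount of 64, a β-actin covariate, arrays of high difference left out, a term for hours 52 to 55, hour 27 or hours 20 to 25 left out, pre-whitening, 6 h means, no cosine terms, day pairs, the mean of all probe sets and, added after the data were seen, a spread fitted with the level.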

Additional observations from a re-analysis of the deposited data

How the results depend on the processing

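No member changed direction under any alternative run. Of the single-gene slopes with a test, 134 kept their direction and side of the threshold, 3 lost the call (Igfbp5 over 6 h means, Igfbp6 over 6 h means and without hours 20 to 25), 1 gained it (Igfbp3 without the 10 arrays whose β-actin difference exceeded 1.4), and the mean of all probe sets, which has no test, moved 4 of 10, to 0.40 for Igf2, 0.27 for Igf2r, 1.13 for Igfbp5 and -0.63 for Igfbp7. The slope of Igf1 ran from 0.94 to 1.21, of Igfbp4 from -0.70 to -0.47 and of Igfbp7 from -0.63 to -0.45. All 118 fitted amplitudes kept their result. Counts over all probe sets moved more. Over 6 h means (8 values), 3008 rose against 6400, 2951 fell against 7286, 0 passed the 24 h cosine (at an adjusted limma p), and 1 passed the squared term. Without those 10 arrays 13066 fell, 55 passed the cosine against 132, and 2249 the squared term against 3419. The β-actin covariate gave 79 and 5545, a term for hours 52 to 55 gave 251 and 14731, and leaving out hours 20 to 25 gave 53 and 26088. The cosine count was 223 over probe sets above the median only and 27 after pre-whitening. Among the members the squared term passed in 8 genes with the term for hours 52 to 55 and in 0 over 6 h means, against 5. Fisher's G-test passed 829 with the trend removed, against 23524. The cause of these changes was not tested, beyond the fewer values of the 6 h means. Pairing each day 2 array with that 24 h before it gave the same calls for all 10 genes, with Igf1 at 1.02 and Igf1r at 0.11 (limma, adjusted p = 0.0287). There is 1 group, so no replicate numbers are shared between groups. The arrays give no bound on probe sets near the floor, since detection calls were not used here.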

Other observations

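Probe sets of transcripts that overlap the members stayed near the floor. The probe set listed for the antisense gene Igf1os had a mean of 5.68 and a slope of -0.01 ± 0.01 per 24 h (limma, adjusted p = 0.104), and that of Igf2os a mean of 5.38 (limma, adjusted p = 0.39). The probe set listed jointly for Airn and Igf2r, left out of the members because it carries both symbols, had a mean of 5.53 and day medians of 5.52 (limma, adjusted p = 0.678), while both probe sets of Igf2r alone rose.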
